A study of Mus musculus with 10 samples.

Results

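A set of 10 genes of macrophage biology was followed in gastrocnemius muscle (GAS), namely *Ccl24* and the 9 macrophage markers *Cd68*, *Adgre1*, *Csf1r*, *Mrc1*, *Lyz2*, *C1qa*, *C1qb*, *C1qc* and *Cd163*. They were chosen by symbol out of 21098 genes in the count table, with the difference between treated and control muscle already known, so their group differences are a description, with no p-value, and where a member is counted as past the threshold this supports nothing further. Counts were found for 8 of the 10 members, and those 8 were also among the 7813 genes that passed the filter on low counts. *Adgre1* (F4/80, an adhesion receptor of mouse macrophages) and *Cd163* (the scavenger receptor for haptoglobin bound to haemoglobin) were listed at 0 in every library. Both are represented by 2 segments that overlap each other, leaving 4 bp of *Adgre1* and 0 bp of *Cd163* outside the overlap, so a 0 here does not show that either gene was silent.

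The muscles came from male C57BL/6J mice, wild type, that were given a high fat diet from 9 weeks of age and had been on it for 9 weeks when treatment began (diet-induced obese, DIO). Injections under the skin followed once a week for 14 weeks, either of 0.9% saline (CTRL, 5 libraries) or of the anti-miR-22 antisense oligonucleotide RES-010 at 10 mg/kg (ASO, 5 libraries). The age at sampling is given as 30 weeks, which is somewhat less than these steps add up to. An ASO of unrelated sequence was not part of the design, so an effect of the chemistry and an effect of miR-22 inhibition cannot be told apart. All mice shared the diet, sex and strain, and nothing in these groups shows lean muscle.

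Tissue macrophages live between the fibers of a muscle, clear debris and dead cells, and exchange signals with fibroblasts and satellite cells. Their survival depends on the receptor encoded by *Csf1r* and its ligands CSF1 and IL-34. CCL24 (eotaxin-2) is a chemokine made by alternatively activated macrophages that attracts eosinophils through the receptor CCR3, which it shares with CCL11 (eotaxin-1). The 3 C1q genes encode the chains of the molecule that starts the classical complement pathway, and in many tissues macrophages are its main source.

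The sequence that the treatment was directed against is shown first because it allows each member to be read for a site. A 7-letter match to the seed of miR-22-3p, GGCAGCT, was sought on the transcript strand. The mature miRNA is given as RefSeq lists it (chr11:75463772-75463793, GRCm38.p6, plus strand), with its seed, bases 2 to 8, in capitals, and it is followed by the match in the longest annotated 3′UTR of *C1qc* (chr4:136616567-136616595, GRCm39, minus strand), with the match in capitals.
mmu-miR-22-3p: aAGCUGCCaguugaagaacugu
C1qc 3′UTR: caccccagtcaGGCAGCTtacaatgagca
The match in *C1qc* begins at base 773 of an annotated 3′UTR of 891 bases and lies outside the 239 bp on which *C1qc* was counted. The longest annotated 3′UTR of *Csf1r* holds 2 matches, and those of the other 8 members, *Ccl24* with its 984 bases among them, hold 0. Within the segments that were counted, *Csf1r* alone of the members holds the heptamer, with 1 match. Of the 28328 counted segments of 500 bp in the whole table, 4.97% hold it, a share that applies to windows of that length and not to the whole 3′UTRs. These are descriptions of sequence only, and no binding of miR-22 was measured.

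Libraries held between 1606909 and 2632560 counts, and every ASO library was deeper than every CTRL library. Levels are given as CPM (the count of a gene scaled to a common library total), with library sizes adjusted by the TMM method, and errors are SDs over 5 libraries. A count of 3, taken as the floor for counting error, corresponds to between 1.25 and 1.77 CPM. Over all genes tested, 11.8% were higher and 17.4% were lower with the ASO at an adjusted p of 0.05 (quasi-likelihood test of edgeR, adjusted after Benjamini-Hochberg), and the groups did not overlap for 7.97% with the ASO above and 13.4% with the ASO below CTRL. The labels do not say that libraries are separate animals beyond giving them separate numbers, so the spread between libraries is that of these samples.

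Of the members, *Ccl24* differed most between the groups. CTRL muscles 1 to 5 had 16, 18, 48, 33 and 29 counts of *Ccl24*, or 7.55, 8.39, 23.7, 19.5 and 16.3 CPM. ASO muscles 1 to 5 had 4, 1, 0, 3 and 1 counts, or 1.93, 0.425, 0, 1.25 and 0.472 CPM. The groups did not overlap, and 4 of the 5 ASO libraries were at or below the floor of 3 counts. The mean was 0.816 ± 0.770 CPM in treated and 15.1 ± 7.01 CPM in control muscle (SD, n = 5 each). This was a fitted log2 fold change of −4.13 (SE 0.56), or 17.5-fold lower. Because the treated level rests on 9 counts in all, the size of this fold is loosely fixed. Only 4 of the tested genes, *Ccl24* included, had a log2 fold change this low or lower, or 0.0512% of them.

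*Ccl24* is encoded on the minus strand of chromosome 5 and was counted on 2 segments (GRCm39). The distal one, chr5:135598791-135599290, spans 500 bp, and the other, chr5:135599434-135599648, spans 215 bp, its 3′ end lying 643 bp upstream of that of the first in the genome. Of the 144 CTRL counts, 109 lay on the upstream segment (75.7%, Wilson 95% interval 68.1 to 82.0), and of the 9 ASO counts 7 did (77.8%, 45.3 to 93.7). The share of the segments thus did not differ detectably at this depth. With the distal segment alone, CTRL libraries had 7, 3, 10, 7 and 8 counts and ASO libraries had 1, 0, 0, 1 and 0, and the gene then fell under the filter.

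The 7 markers with counts behaved differently from *Ccl24*, in that none separated the groups. Each of the 7 had its highest level of all 10 libraries in CTRL 3 and its lowest in ASO 5. CTRL 3 exceeded the mean of the other 4 CTRL libraries 3.16-fold for *Csf1r* and 5.10-fold for *Cd68*, with the other 5 markers between, whereas for *Ccl24* it did so 1.83-fold. ASO 5 in turn lay 3.001-fold (*Mrc1*) to 9.31-fold (*C1qb*) below the mean of the other 4 ASO libraries. These 2 libraries therefore set much of the marker difference, and the log2 fold change of each member is given below with and without them.

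**Figure D1:**
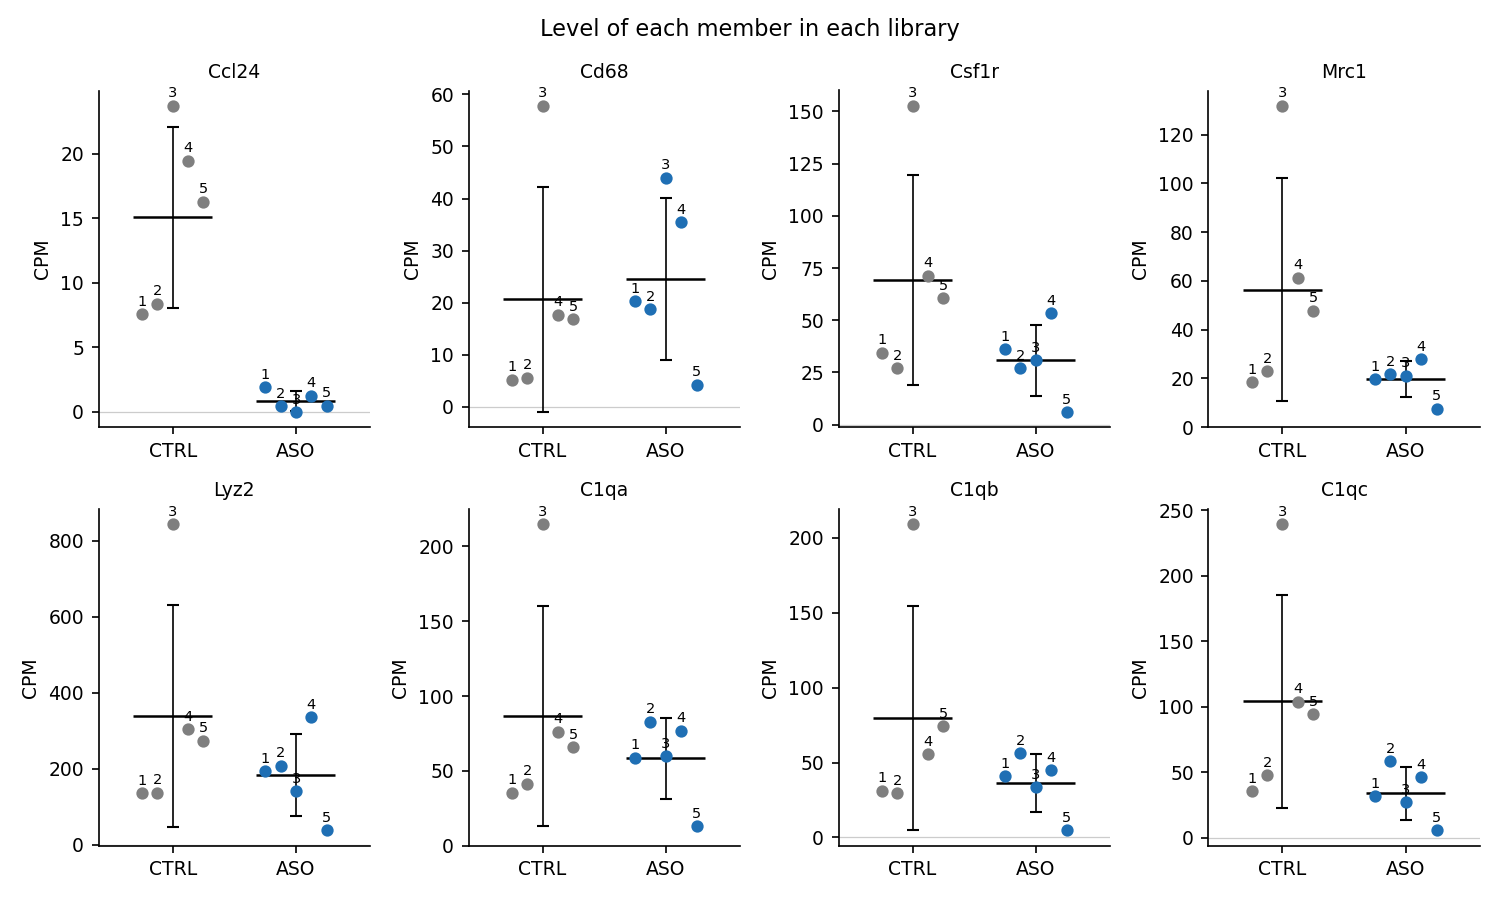
Level in CPM (linear axes) of the 8 members with counts, 1 panel each, for 5 CTRL (grey) and 5 ASO (blue) libraries, numbered by replicate. Horizontal lines are means and vertical bars are 1 SD; the groups are apart for Ccl24, while CTRL 3 is the highest and ASO 5 the lowest library for the 7 other genes.

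The receptors among the markers are *Csf1r*, the receptor for CSF1 and IL-34, and *Mrc1* (CD206), a mannose receptor typical of resident and alternatively activated macrophages. *Csf1r* was at 34.4, 27.0, 152.7, 71.4 and 60.7 CPM in CTRL 1 to 5 and at 36.2, 27.2, 30.9, 53.4 and 6.13 CPM in ASO 1 to 5, so that the groups overlapped. Its log2 fold change was −1.16 (SE 0.51) over all libraries and −0.38 (SE 0.32) without CTRL 3 and ASO 5. *Mrc1* was at 18.4, 22.8, 131.9, 61.4 and 47.7 CPM in CTRL and at 19.8, 21.7, 21.1, 28.0 and 7.55 CPM with the ASO. CTRL 1 and CTRL 2 thus lay within the range of the treated muscles, and CTRL 3, 4 and 5 above it. The log2 fold change of *Mrc1* was −1.51 (SE 0.49), and −0.71 (SE 0.35) without the 2 libraries. *Mrc1* was counted on chr2:14336369-14336868 (plus strand). Nearly all *Csf1r* counts, 1017 against 5, fell on its upstream segment, 1015 bp before the distal one.

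*Cd68*, a glycoprotein of the lysosomal and endosomal membrane, was the member whose fitted difference had the opposite sign. It was at 5.19, 5.60, 57.8, 17.7 and 16.9 CPM in CTRL 1 to 5 and at 20.3, 18.7, 44.0, 35.5 and 4.24 CPM in ASO 1 to 5. The other 4 treated muscles stood above 4 of the control muscles, with CTRL 3 above and ASO 5 below all others. The log2 fold change was 0.26 (SE 0.65) over all libraries, 1.14 (SE 0.56) without CTRL 3 and 1.41 (SE 0.44) without both. *Cd68* was counted on 158 bp (chr11:69555039-69555196, minus strand) where Gm73992 runs on the other strand, and no strand option is named for the counting, so reads of the pair cannot be told apart.

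*Lyz2*, the lysozyme of macrophages and other myeloid cells, had the highest level per length of the members. Its values were 136, 138, 843, 305 and 274 CPM in CTRL 1 to 5 and 193, 208, 141, 336 and 38.2 CPM in ASO 1 to 5. The second highest library of all was thus a treated one, ASO 4, and the groups overlapped widely. The log2 fold change was −0.89 (SE 0.56), and 0.05 (SE 0.32) without CTRL 3 and ASO 5. *Lyz2* was counted on chr10:117113236-117113735 (minus strand), over Gm67237 on the other strand, and it has a near-identical neighbor, *Lyz1*, with which reads can be confused, so its level is uncertain for both reasons.

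The C1q genes lie side by side on the minus strand of chromosome 4, and each was counted on a single short segment, *C1qa* on chr4:136623228-136623464 (237 bp), *C1qc* on chr4:136617115-136617353 (239 bp) and *C1qb* on chr4:136607440-136607599 (160 bp), the last overlapped by Gm69251 on the other strand. *C1qa* was at 35.4, 41.5, 215, 76.1 and 65.7 CPM in CTRL 1 to 5 and at 58.9, 82.8, 59.6, 76.8 and 13.2 CPM in ASO 1 to 5. *C1qb* was at 31.1, 29.4, 209, 55.5 and 74.1 CPM in CTRL and at 41.0, 56.1, 33.4, 45.1 and 4.72 CPM with the ASO. *C1qc* was at 35.4, 47.6, 239, 104 and 94.4 CPM in CTRL and at 31.9, 58.2, 27.1, 46.3 and 5.66 CPM with the ASO. For each chain the groups overlapped, and ASO 2 was above 4 control muscles for *C1qa*, 3 for *C1qb* and 2 for *C1qc*. The log2 fold changes were −0.57 (SE 0.51) for *C1qa*, −1.14 (SE 0.59) for *C1qb* and −1.61 (SE 0.56) for *C1qc*. Without CTRL 3 and ASO 5 they were 0.35 (SE 0.25), −0.10 (SE 0.30) and −0.77 (SE 0.35).

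The median log2 fold change of the 7 markers was −1.14, beside −0.03 over all genes tested, and 6 of the 7 were below 0. Without CTRL 3 and ASO 5 the marker median was −0.10, and 4 of the 7 were below 0. Among the 8 members with counts, 3 (*Ccl24*, *Mrc1* and *C1qc*) were past the threshold and lower, beside the 17.4% of all genes tested, and 0 were past it and higher. Since the members were chosen on this contrast, these counts are only a description. With 1 library left out, *Mrc1* was past the threshold only without ASO 4, CTRL 1 or CTRL 2, and *C1qc* only without ASO 2, CTRL 1 or CTRL 2. *Mrc1* was not past it with limma-voom, nor *C1qc* with limma-voom, DESeq2, upper-quartile scaling, the most distal segment only or thinned libraries. Without CTRL 3 and ASO 5, 1 member was past it and lower (*Ccl24*) and 1 was past it and higher (*Cd68*).

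**Figure D2:**
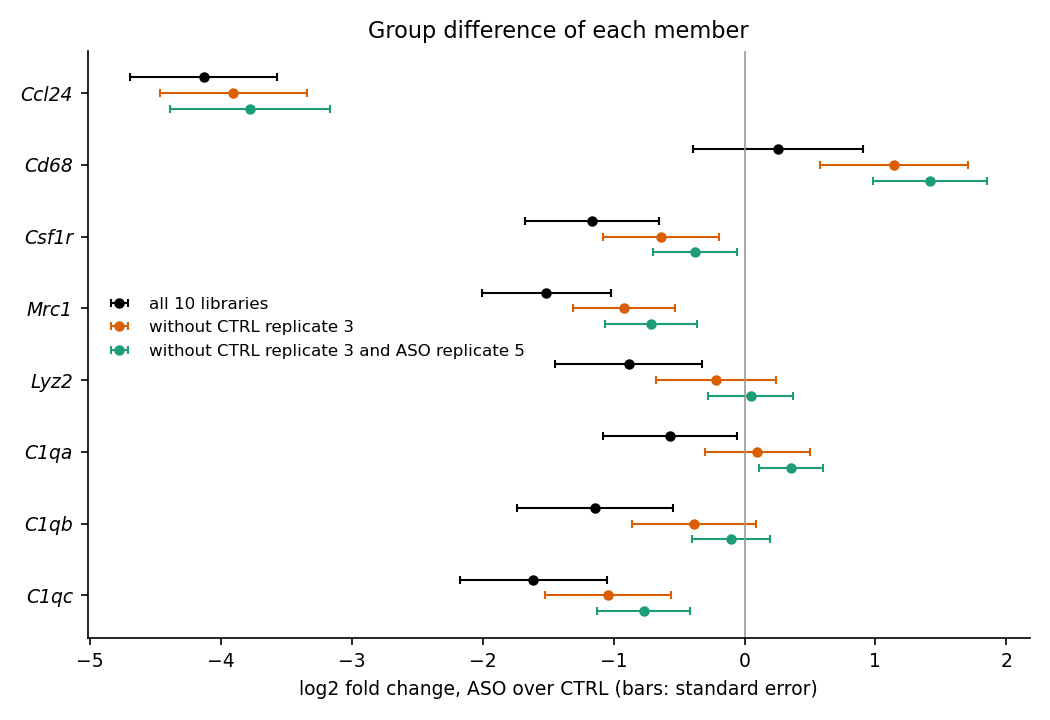
Log2 fold change, ASO over CTRL, of the 8 members with counts (points) with its standard error (bars), from all 10 libraries (black), without CTRL 3 (orange) and without CTRL 3 and ASO 5 (green). Ccl24 stays between −4.13 and −3.78, while Lyz2 and C1qa end on the other side of 0 and Cd68 moves from 0.26 to 1.41.

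Levels of different genes can be set side by side only per length, here as the median CPM per kb of counted segment. In CTRL the order was *Lyz2* at 548, *C1qc* at 395, *C1qb* at 347, *C1qa* at 277, *Cd68* at 107, *Mrc1* at 95.5, *Csf1r* at 70.8 and *Ccl24* at 22.8 CPM per kb. With the ASO it was *Lyz2* at 386, *C1qb* at 257, *C1qa* at 252, *C1qc* at 133, *Cd68* at 128, *Mrc1* at 42.3, *Csf1r* at 36.03 and *Ccl24* at 0.66 CPM per kb. These are orders of medians. *Csf1r* was divided by 857 bp, although nearly all of its counts fell on 1 segment of 500 bp. Its level per kb is thus too low for that segment, and its place below *Mrc1* and *Cd68* is not fixed. No allowance was made for read pairs that only partly overlap a short segment, such as those of *Cd68* and the C1q genes. Within a group the highest library exceeded the lowest 3.14-fold for *Ccl24* in CTRL and up to 11.9-fold for *C1qb* with the ASO, so neighbors in these orders, such as *C1qb* and *C1qa* with the ASO, do not differ beyond the spread.

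In bulk muscle, fewer cells of a type and less RNA per cell cannot be told apart. *Ccl24* was therefore also set against the 7 markers of the same library. Their summed level was 296, 312, 1848, 691 and 634 CPM in CTRL 1 to 5 and 401, 473, 357, 622 and 79.7 CPM in ASO 1 to 5, and these overlapped. The log2 difference of the group means of log values was −0.90, and 0.02 without CTRL 3 and ASO 5. Per 1000 marker counts, CTRL libraries had 25.5, 26.9, 12.8, 28.2 and 25.7 counts of *Ccl24*, and ASO libraries had 4.81, 0.898, 0, 2.01 and 5.92. Each control ratio exceeded each treated one, and the lowest of the control ratios was that of CTRL 3, the library with the most marker counts. Summed over a group, there were 144 *Ccl24* counts beside 7336 marker counts in CTRL (19.6 per 1000) and 9 beside 4446 with the ASO (2.02 per 1000). The marker sums are weighted towards *Lyz2*, whose level is uncertain. It had 5405 counts over the 10 libraries, beside 1515 for *C1qa*, the next highest, and 484 for *Cd68*.

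**Figure D3:**
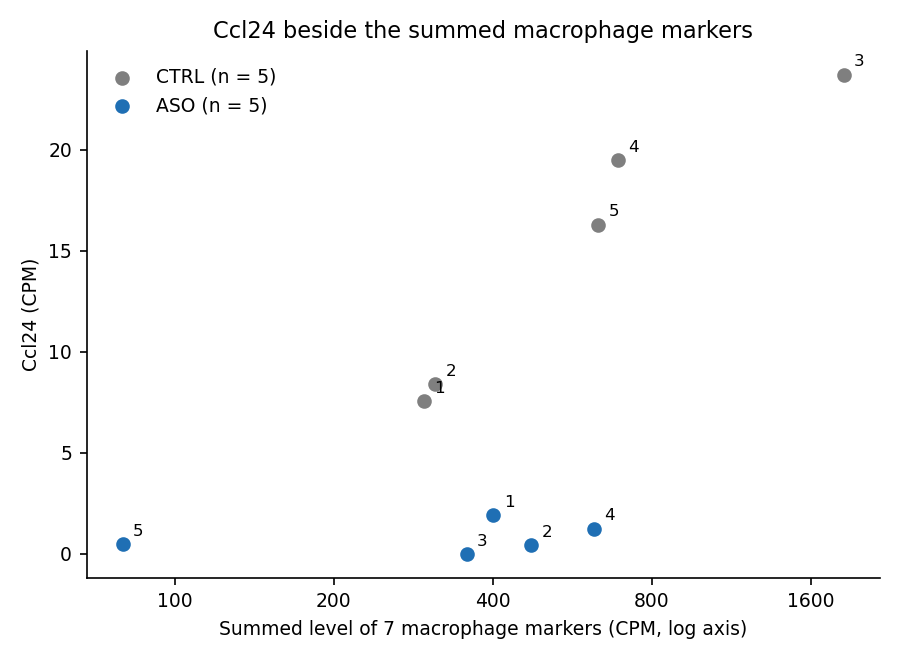
Ccl24 in CPM (linear axis) against the summed level in CPM of the 7 macrophage markers (log axis), 1 point per library, CTRL in grey and ASO in blue, numbered by replicate. Lyz2 weighs most in that sum. At like marker levels, such as 622 CPM in ASO 4 and 634 CPM in CTRL 5, Ccl24 was at 1.25 and 16.3 CPM.

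The markers also differed from each other in how they were shifted, which ratios of counts within a library show without any scaling. The ratio of *C1qc* to *C1qa* was 1.00, 1.15, 1.11, 1.36 and 1.44 in CTRL 1 to 5 and 0.541, 0.703, 0.454, 0.603 and 0.429 in ASO 1 to 5. The ratio of *C1qb* to *C1qa* was 0.880, 0.708, 0.972, 0.729 and 1.13 in CTRL and 0.697, 0.677, 0.560, 0.587 and 0.357 with the ASO. Neither ratio overlapped between the groups, CTRL 3 and ASO 5 included, although the second was separated narrowly. The ratio of *C1qc* to *C1qb* overlapped, with 0.970 ± 0.176 with the ASO and 1.41 ± 0.32 in CTRL (SD, n = 5 each).

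*Cd68* stood opposite to the other markers in these ratios. Per 100 counts of *Lyz2* there were 3.81, 4.07, 6.86, 5.80 and 6.15 counts of *Cd68* in CTRL 1 to 5 and 10.5, 8.98, 31.2, 10.5 and 11.1 in ASO 1 to 5. The ratio of *Mrc1* to *Cd68* was 3.55, 4.08, 2.28, 3.47 and 2.83 in CTRL and 0.976, 1.16, 0.481, 0.788 and 1.78 with the ASO. In both ratios the groups were apart, with ASO 3 the farthest from CTRL, whereas the ratio of *Mrc1* to *Csf1r* was alike, at 0.757 ± 0.287 with the ASO and 0.778 ± 0.140 in CTRL (SD, n = 5 each). Of the 28 pairs of members with counts, 12 had ratios without overlap between the groups (19.6% of all pairs of tested genes did), among them 5 of the 7 pairs with *Ccl24* and 7 of the 21 pairs of markers. Of those 7, 5 involved *Cd68* and the other 2 were *C1qa* with *C1qb* and *C1qa* with *C1qc*. The pairs share genes and were chosen on this contrast, so no test is given.

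**Figure D4:**
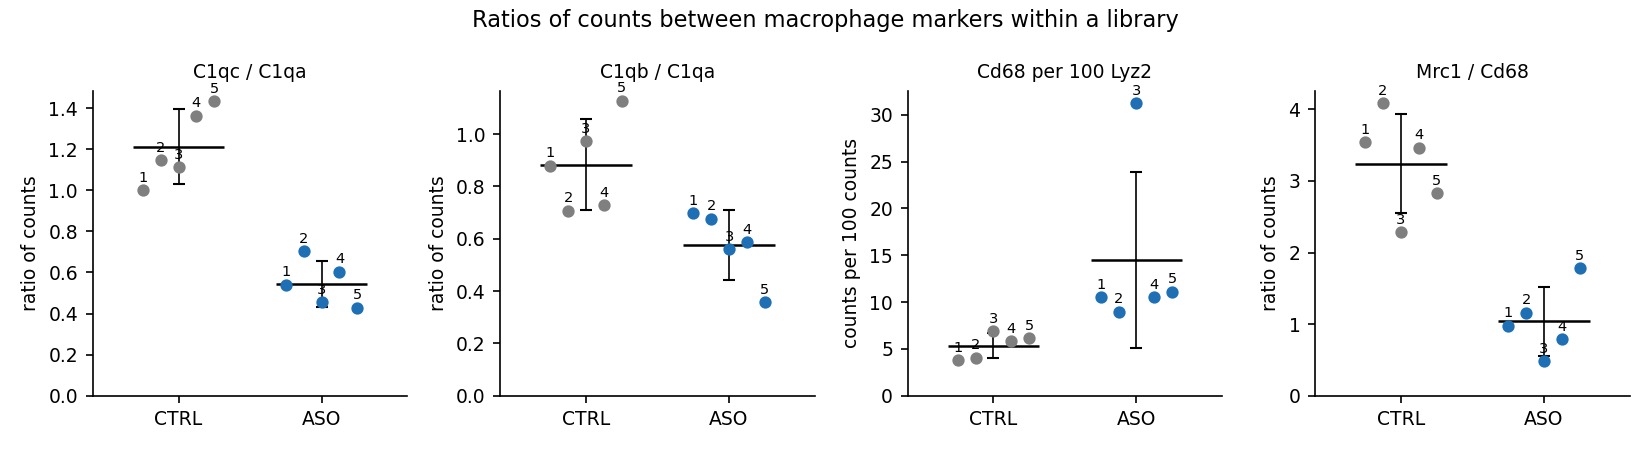
Ratio of the counts of 2 macrophage markers in the same library (linear axes from 0) for C1qc to C1qa, C1qb to C1qa, Cd68 per 100 counts of Lyz2 and Mrc1 to Cd68, in 5 CTRL (grey) and 5 ASO (blue) libraries. Horizontal lines are means and vertical bars 1 SD. In each panel the groups do not overlap, which held for 7 of the 21 pairs of markers and not for the others.

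Genes around the members were read from 9 lists, with the members left out. Together they hold 178 symbols, of which 2 were not in the table, 44 were listed at 0 (14 of these with no base outside overlaps), 70 were under the filter and 62 were tested. Of the tested genes, 8 fell (12.9%, beside 17.4% of all genes) and 2 rose (3.23%, beside 11.8%). The median log2 fold change was −0.15, beside −0.03 over all genes, and 37 of 62 (59.7%) were below 0, beside 51.7%. The difference between these shares was not tested, and the counts depended on the method, with 12 called lower by DESeq2 and 7 called higher under upper-quartile scaling. Without CTRL 3 and ASO 5, 1 of the 8 lower genes, *Csf1*, was still called, and 5 listed genes were called higher.

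On the side of the CCL24 receptor, *Ccr3* itself was listed at 0 in all 10 libraries although 500 bp of it were open to counting. *Ccl11*, the other eotaxin, was at 95.3, 52.2, 123, 85.6 and 117 CPM in CTRL 1 to 5 and at 50.7, 23.8, 45.7, 69.7 and 45.3 CPM in ASO 1 to 5. It fell with a log2 fold change of −1.01 (SE 0.28, adjusted p = 0.016, edgeR), with CTRL 2 inside the treated range and the other control muscles above it. Without CTRL 3 and ASO 5 its log2 fold change was −0.88 with an adjusted p of 0.069 in edgeR. In the list of CCR3 and type 2 immunity genes, *Ccl11* was the only one of 4 tested that was called, and it was also the only one of 8 tested chemokines (list medians −0.20 and −0.53). Of 3 tested chemokine receptors 0 were called, with a median of 0.33.

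Among the partners of *Csf1r*, the ligand gene *Csf1* was low in all libraries. It was at 4.72, 7.93, 17.8, 16.5 and 14.6 CPM in CTRL 1 to 5 and at 5.79, 3.82, 2.54, 4.59 and 2.36 CPM in ASO 1 to 5, with CTRL 1 below ASO 1. It fell with a log2 fold change of −1.67 (SE 0.40, adjusted p = 0.0084, edgeR), and with −1.36 and an adjusted p of 0.047 in edgeR without CTRL 3 and ASO 5. *Il34*, the other ligand, was under the filter at 3.03 ± 1.12 CPM in control and 2.80 ± 0.98 CPM in treated muscle (SD, n = 5 each). *Grb2*, an adaptor downstream of many receptor tyrosine kinases, averaged 118 ± 10.2 CPM in control and 78.8 ± 17.5 CPM in treated muscle, without overlap (log2 fold change −0.58, edgeR adjusted p = 0.017), and lost its call without ASO 4, without ASO 5 and without CTRL 3 and ASO 5 (adjusted p = 0.065, edgeR). These were 2 of 8 tested genes of the CSF1 list, whose median was −0.62.

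The remaining macrophage lists gave few calls. Of 9 tested general macrophage genes 0 were called in either direction (median −0.25). *Pf4*, a chemokine of platelets that resident macrophages also express, was the 1 called of 6 tested resident or alternative activation genes (log2 fold change −1.71, edgeR adjusted p = 0.036, list median −0.94). Its level was 9.43, 8.86, 55.8, 16.5 and 14.6 CPM in CTRL and 6.28, 6.37, 10.2, 7.51 and 1.41 CPM with the ASO, and it lost the call without CTRL 3 (log2 fold change −0.94), CTRL 4 or ASO 1, 2, 4 or 5, with limma-voom, and without CTRL 3 and ASO 5 together (−0.69). *Fn1*, fibronectin, which fibroblasts express as well, was the 1 called of 3 tested monocyte and inflammatory genes (log2 fold change −2.29, edgeR adjusted p = 0.016, list median −1.32). Without CTRL 3 and ASO 5 its log2 fold change was −1.61, with an adjusted p of 0.082 in edgeR. *Lyve1*, a hyaluronan receptor of resident macrophages and lymphatic vessels, was under the filter and was named after its values were seen. It was at 6.60, 3.26, 45.5, 13.6 and 15.2 CPM in CTRL 1 to 5. With the ASO it was at 0.943 to 3.81 CPM, so the groups overlapped. Of the 6 tested resident or alternative activation genes, 4 were below 0 and the others above it. The pan-leukocyte gene *Ptprc* had 10 counts in all on the 13 bp open to counting.

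In the complement list of 12 tested genes (median −0.17), *Serping1*, the inhibitor of the C1 proteases, fell with a log2 fold change of −0.97 (SE 0.28), and *Calr* and *Cd55* rose with 0.68 (SE 0.16) and 0.53 (SE 0.17). Calreticulin is a chaperone of the endoplasmic reticulum that can bind C1q, and CD55 limits complement on cell surfaces. The edgeR adjusted p-values were 0.021, 0.0086 and 0.037, and only the groups of *Calr* did not overlap, at 180 to 266 CPM in control and 294 to 489 CPM in treated muscle. *Cd55* lost its call in 7 of the 10 refits without 1 library, keeping it without ASO 2, ASO 4 or CTRL 2, and it also lost it under total-count scaling. With the most distal segment only, *Serping1*, *Calr* and *Cd55* were not called, and without CTRL 3 and ASO 5 only *Calr* of these 3 was (0.76, edgeR adjusted p = 0.016). *C1ra*, a protease that C1q carries, averaged 13.1 ± 6.39 CPM in control and 11.8 ± 2.25 CPM in treated muscle (SD, n = 5 each), with an edgeR adjusted p of 0.76. *C1s1*, the other, had 40 counts in all and was not tested.

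Of 16 tested scavenging and lysosome genes (median −0.10), *Ctsl*, a lysosomal protease, and *Cd36*, a receptor for fatty acids and oxidized lipoproteins, fell with log2 fold changes of −1.16 (SE 0.33) and −0.88 (SE 0.27) and edgeR adjusted p-values of 0.019 and 0.029. *Ctsl* lost its call without ASO 3 or ASO 5, *Cd36* without ASO 1, 2 or 5 or CTRL 1 or 3 or with the most distal segment only, and both without CTRL 3 and ASO 5 (−0.74 and −0.68). *Hmox1*, the haem oxygenase, averaged 41.6 ± 22.9 CPM in control and 29.6 ± 4.44 CPM in treated muscle (edgeR adjusted p = 0.22). *Hp*, the haptoglobin whose complex CD163 takes up, ranged from 2.83 to 1017 CPM within CTRL and from 17.4 to 514 CPM with the ASO (edgeR adjusted p = 0.97). *Cd36* is also abundant in muscle fibers, adipocytes and endothelium, and which cells expressed these 4 genes here was not determined.

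**Figure D5:**
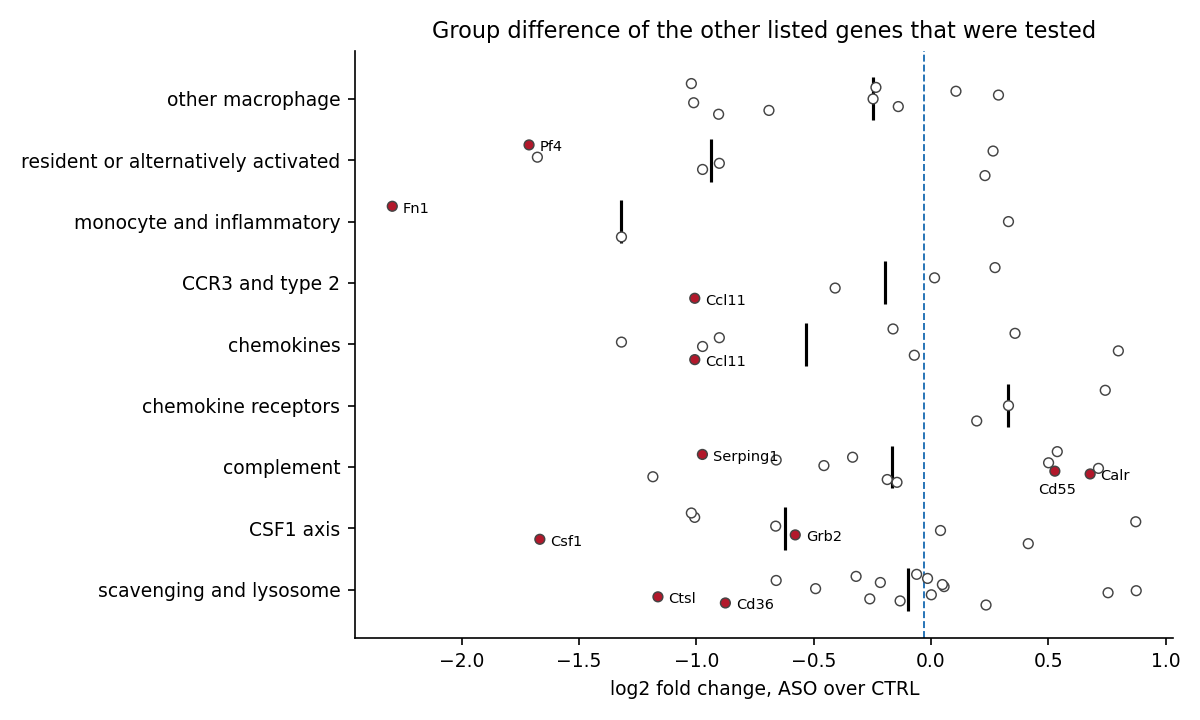
Log2 fold change, ASO over CTRL, of each tested gene of the 9 lists with the members left out (1 point per gene, red where the adjusted p of edgeR's quasi-likelihood test was under 0.05). Black bars are list medians and the dashed line is the median of all genes tested, −0.03; 8 genes were called lower and 2 higher, and Ccl11 stands in 2 lists.

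Markers of other cell types moved with some of these values. The 10 skeletal muscle markers (2 listed at 0) had sums without overlap. These were 44064 to 83277 CPM in control and 88634 to 136623 CPM in treated muscle. Their lowest library was CTRL 3 and their highest was ASO 5, the reverse of the macrophage markers, and *Ckm* and *Atp2a1* were the 2 called higher of 4 tested. The 10 fibroblast markers (2 listed at 0) summed to 481 to 1930 CPM in control and 196 to 969 CPM in treated muscle. Their sum was lowest in ASO 5 and highest in CTRL 3, and *Lum* was the 1 called lower of 6 tested. The 10 adipocyte markers (1 listed at 0) were highest in CTRL 3 as well, at 25260 CPM, and otherwise between 4033 and 12979 CPM. Of the 9 tested adipocyte genes 0 were called and 8 were below 0, with a median log2 fold change of −0.97. The median was −0.62 for fibroblast, 0.75 for muscle and 0.24 for endothelial genes, beside −1.14 for the 7 macrophage markers. The part of muscle, fibroblast or fat content in the differences of *Ccl24* and the markers was not tested.

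The cells that CCL24 attracts left little trace. The 6 eosinophil markers summed to 0.472 to 7.91 CPM in control and 1.27 to 5.79 CPM in treated muscle, and 3 of them were listed at 0. Neutrophil markers (8) summed to 0.472 to 16.1 CPM over the 10 libraries, dendritic cell markers (9) to 21.2 to 40.5 CPM, mast cell markers (7) to 3.77 to 39.5 CPM and T and NK cell markers (10) to 34.0 to 122 CPM. B cell markers (6) ranged from 176 to 1658 CPM, red blood cell markers (5) from 283 to 1715 CPM and endothelial markers (10) from 244 to 550 CPM. Listed at 0 were 4 T and NK, 3 dendritic, 2 mast, 2 B, 1 neutrophil, 1 red blood cell and 0 endothelial markers. The groups overlapped for each of these 8 lists. For eosinophils and neutrophils 0 genes were tested, so no call was possible. Tested were 1 gene each for T and NK, B and mast cells and 2 for dendritic cells. Red blood cells had 4 tested genes and endothelium 8. Of all these tested genes 0 were called.

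By the root mean square difference of centered log2(CPM + 0.5) values over the 10 libraries, the genes most like *Ccl24* were *Nrep* (0.486), *Itgav* (0.524), Gm49416 (0.567), *Ube3b* (0.571) and *Galnt1* (0.583), against a median of 1.98 for all tested genes. *Itgav*, the integrin alpha V subunit, was at 16.0 to 52.2 CPM in CTRL and 1.41 to 4.35 CPM with the ASO. *Nrep*, a small protein expressed in injured and regenerating tissue, was at 120 to 286 CPM in CTRL and 7.19 to 31.9 CPM with the ASO. None of these 5 overlapped between the groups, and none of them had its highest library in CTRL 3. Separation of the groups follows from choosing genes with a pattern like that of *Ccl24*, so it is no added support. Among the genes most like the summed markers were *Tyrobp* (0.209), *Anxa1* (0.319), *Ly86* (0.362) and *Basp1* (0.383), against a median of 1.16. *Tyrobp*, the adaptor of activating receptors on myeloid cells, was at 44.5 CPM in CTRL 3, 1.41 CPM in ASO 5 and between 5.13 and 17.7 CPM in the other 8 libraries. These 4 shared the high CTRL 3 and the low ASO 5 of the markers, which follows from the same kind of choice, and their groups overlapped.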

How the data were processed

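The authors used fastp for trimming reads of stranded poly(A) libraries, STAR for alignment (GRCm39) and featureCounts for counting read pairs on a Gencode annotation, keeping only the final 500 bp of each 3′UTR. The deposited values are raw counts on 52423 segments. No strand option is named, and 4 further per-sample columns were not used. Segments were matched to genes with GENCODE M39 on GRCm39 (62 unmatched, 0.0197% of counts) and summed per gene. With the options named, featureCounts leaves out read pairs that fall on more than 1 segment, and 11480 segments share their coordinates with another.

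The test was that of edgeR 4.0.16 under R 4.3.3 (TMM, filter on low counts by group, quasi-likelihood test, Benjamini-Hochberg adjustment, threshold 0.05) on 5 ASO and 5 CTRL libraries of 1606909 to 2632560 counts. Members and lists were chosen with earlier results of these data known. Named are the members, called genes of each list (at most 6), Ccr3, Ccl11, Csf1, Il34, C1ra, C1s1, Hp, Hmox1 and Ptprc, and the 5 genes nearest to Ccl24 and to the summed markers, of which 1 is not reported here; Ckm, Atp2a1 and Lum are the called genes of their cell type lists, and Lyve1 was named after its values were seen. Alternatives were DESeq2 1.42.0, limma-voom (limma 3.58.1), RLE, total-count and upper-quartile scaling, other filters, the replicate number as a block, the most distal segment only, thinning and leaving out each library; the fit without CTRL 3 and ASO 5 was added after seeing the data. In data simulated for ASO against CTRL with 7893 genes tested, edgeR recovered 68 of 96 genes changed by a log2 of 1 and 96 of 96 changed by 2, with 5 false calls. Every simulated gene had the same variation between libraries, the median of the genes tested, and no library was made to stand apart. These rates therefore need not hold for genes that vary more, such as the markers raised in CTRL 3. No 2 libraries of the same group agreed within sampling noise. Intervals and floors cover counting error only.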

Additional observations from a re-analysis of the deposited data

Results flagged for a closer look

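In 44 groups of 5 libraries, the highest or lowest library was checked for standing apart by Dixon's criterion, and 10 did so. Chance meets it in about 1 in 20 groups of normally distributed values. The check was made on CPM without logs, and values skewed upward can meet it more often. Among the members, CTRL 3 stood above the other control muscles for *Cd68* (57.8 CPM, next 17.7), *Lyz2* (843 CPM, next 305), *C1qa* (215 CPM, next 76.1) and *C1qb* (209 CPM, next 74.1), and for the summed 7 markers (1848 CPM, next 691). Of the other listed genes, *Pf4* (55.8 CPM, next 16.5), *Hmox1* (82.0 CPM, next 35.4) and *Hp* (1017 CPM, next 297) were high in the same library. ASO 4 stood above the other treated muscles for *Fn1* (70.6 CPM, next 19.97), and CTRL 1 stood below the other control muscles for *Grb2* (99.98 CPM, next 119). The 8 flags of CTRL 3 are of 1 library and are not independent of each other.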

How the results depend on the processing

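With each library left out, the count of all genes called higher lay between 692 and 1021 and lower between 1127 and 1369, and the listed genes called lower between 6 and 11 and higher between 1 and 4 (4 without CTRL 3, 1 without ASO 3, CTRL 1 or CTRL 4, against 2). All genes called higher were 528 under total counts, 232 with the most distal segment only and 561 without CTRL 3 and ASO 5, and lower 335 with the distal segment. Listed genes called lower were 2 with the distal segment and 1 without the 2 libraries, and higher were 1 under total counts, 7 under upper quartile, 5 with DESeq2, 4 with limma-voom, 0 with the distal segment and 5 without the 2 libraries. Total counts shifted the all-gene median (log2) from −0.03 to −0.21. *Ccl24* stayed between −5.01 (thinned) and −3.78, and was not tested with at least 10 counts in every library or with the distal segment. *Cd68* was at −0.04 without ASO 3 and −0.09 with the distal segment. It has a single segment, so its counts were the same in that fit and the scaling differed. The other markers with a single segment moved down there too, such as *C1qa* from −0.57 to −0.89 and *Mrc1* from −1.51 to −1.84. The summed markers' log2 difference lay between −1.14 and −0.38 with a library left out and was 0.02 without both. *C1ra* (−0.31 to 0.16 with a library left out) reversed without CTRL 3 and, at 0.24, without both, and *Hp* to −0.16 under total counts, −0.26 with the distal segment and as far as −0.26 with a library left out (up to 1.14). Of the named listed genes' 266 alternative values, 219 kept direction and call, 38 lost the call and 9 reversed; where none is given, the cause was not tested.

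Replicate numbers are shared by the groups but gave no sign of pairing the muscles. Deviations of same-numbered libraries correlated at −0.43, 0.06, 0.05, 0.06 and 0.16, and no ASO library correlated best with the CTRL library of its number. These values cannot exclude a pairing. With the replicate block, 662 genes were higher and 1172 lower, 7 listed genes were lower and 4 higher, and *Ccl24* was at −4.09, while *Mrc1*, *C1qc*, *Cd55* (adjusted p = 0.075, edgeR) and *Ctsl* (0.073) were no longer past the threshold and no other named gene changed its call. Depth limits *Ccl24* most, whose treated libraries held 0 to 4 counts.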
